A study of Mus musculus with 6 samples.

Results

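Lecticans and the proteins that anchor them in perineuronal nets are the subject of this account: the lecticans Ncan, Bcan, Acan and Vcan, the link protein genes Hapln1, Hapln2 and Hapln4, the tenascins Tnr and Tnc, and the receptor phosphatase gene Ptprz1. These 10 genes, of 35976 in the count tables, were taken by name. They were picked after earlier results of the same libraries were known, on how their counts differed between the groups and from astrocyte and precursor markers. Their differences are therefore given as a description, with no test. Of the 10 genes, 8 passed the filter on low counts and were fitted, and Acan and Tnc did not pass.

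The study sequenced RNA of amygdala neurons of male mice (strain C57BL/6J), with 3 libraries labelled sgRosa and 3 labelled sgEgfr. In both groups an adeno-associated virus carried Cas9 under the astrocyte promoter GfaABC1D, with a guide against Egfr, the receptor for epidermal growth factor, or against the control locus Rosa. Expression ran for more than 2 weeks, and all mice were then restrained in tubes for 7 days, conditioned to fear for 1 day and given extinction for 3 days. Tissue was dissociated with papain, cells went through a magnetic kit that keeps neurons, and each library was made from 5 ng of RNA. The treatment text of every sample also names sgRosa or sgAreg in microglia and does not say to which samples this applies. Ages were not given, and no label says whether the libraries of a group came from separate mice, so the spread between them may be technical.

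Perineuronal nets are lattices of extracellular matrix around the cell bodies and dendrites of certain neurons, often fast-spiking inhibitory ones. A backbone of hyaluronan binds the lecticans, which carry chondroitin sulfate chains, link proteins clamp that bond, and tenascin-R joins the other ends of the lecticans. In the amygdala these nets are known for their part in how stable a fear memory is after extinction. The same proteoglycans are also found outside nets, in the diffuse matrix and at nodes of Ranvier, and they are made by neurons, astrocytes and oligodendrocyte precursors in differing proportions.

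Upstream sequences of 5 of the genes are shown because their levels across the 6 libraries paired Ncan with Tnr and Bcan with Ptprz1, and set Hapln2 farthest from Ncan. Each is the 250 bases before the RefSeq start (GRCm38.p6), read 5′ to 3′ on the strand of the gene. Capitals mark a match on either strand to TATAAA (the TATA box), GGGCGG (the GC box), CAGCTG (an E-box) or ACAAAG (a SOX motif); no matches in these 5 windows overlapped. The windows were Ncan chr8:70120845-70121094 (minus strand), Tnr chr1:159523519-159523768 (plus), Bcan chr3:88000357-88000606 (minus), Ptprz1 chr6:22875252-22875501 (plus) and Hapln2 chr3:88027512-88027761 (minus).
Ncan: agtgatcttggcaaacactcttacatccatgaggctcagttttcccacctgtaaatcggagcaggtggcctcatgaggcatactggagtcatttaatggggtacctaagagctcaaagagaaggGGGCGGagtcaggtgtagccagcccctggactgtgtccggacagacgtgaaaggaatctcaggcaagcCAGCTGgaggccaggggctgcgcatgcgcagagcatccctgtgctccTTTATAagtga
Tnr: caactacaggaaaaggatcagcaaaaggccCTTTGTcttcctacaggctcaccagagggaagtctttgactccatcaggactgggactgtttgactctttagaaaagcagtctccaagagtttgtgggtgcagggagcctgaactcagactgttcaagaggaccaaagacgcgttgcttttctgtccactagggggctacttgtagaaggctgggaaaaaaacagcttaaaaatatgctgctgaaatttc
Bcan: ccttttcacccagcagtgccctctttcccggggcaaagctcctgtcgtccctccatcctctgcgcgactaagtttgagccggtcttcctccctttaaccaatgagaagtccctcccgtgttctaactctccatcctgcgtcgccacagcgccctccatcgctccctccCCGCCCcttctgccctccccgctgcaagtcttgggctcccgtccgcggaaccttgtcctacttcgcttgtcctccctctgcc
Ptprz1: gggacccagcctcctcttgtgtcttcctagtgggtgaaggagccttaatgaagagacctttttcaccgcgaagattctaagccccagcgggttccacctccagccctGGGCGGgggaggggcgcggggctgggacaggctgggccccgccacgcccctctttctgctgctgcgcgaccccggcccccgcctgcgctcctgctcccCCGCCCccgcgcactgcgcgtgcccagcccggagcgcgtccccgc
Hapln2: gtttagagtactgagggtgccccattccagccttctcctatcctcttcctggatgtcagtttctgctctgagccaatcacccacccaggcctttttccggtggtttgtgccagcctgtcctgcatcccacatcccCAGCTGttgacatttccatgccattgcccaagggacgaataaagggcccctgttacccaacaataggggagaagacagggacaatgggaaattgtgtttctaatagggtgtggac
The Ncan window held 1 match each to the TATA box (first base 11 before the RefSeq start, minus strand of the gene), the E-box and the GC box. The Tnr window held only a SOX match. In the GENCODE annotation the minus-strand genes Ncan and Hapln2 begin farther upstream than in RefSeq, at 70120873 and 88027583. The last bases of their windows, with the TATA match of Ncan, thus lie inside the GENCODE gene. Both Bcan and Ptprz1 held the GC box, with 1 and 2 matches, and their windows were GC-rich at 62.0% and 71.6%. The Hapln2 window held an E-box match alone and was 52.4% GC, which is the median over all windows. Among 32851 RefSeq windows of this length, 12.4% held TATAAA, 32.7% GGGCGG, 13.0% CAGCTG and 16.5% ACAAAG. These matches are letters in a window and nothing about binding was measured. RefSeq windows were found for 9 of the 10 genes; Hapln4 had none in the table used here.

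Total counts ranged from 2348897 to 10152812 per library, so that 3 counts, taken as the detection floor, stood for 0.270 to 1.25 CPM (counts scaled to library size, with edgeR's TMM factors); this floor covers counting error only. The targeted gene Egfr had 1, 26 and 23 counts in sgRosa and 6, 18 and 6 in sgEgfr, a log2 fold change of -0.64 (SE 1.01) that lies within the spread between libraries; RNA of enriched neurons does not check an edit made in astrocytes. In the edgeR quasi-likelihood fit (adjustment by Benjamini and Hochberg) 0 of 13159 genes passed, with 811 under an unadjusted p of 0.05, limma-voom gave 0 and DESeq2 gave 33. All 12 pan-neuronal markers were detected in every library, as the neuron label asks. Other cells were present too: all 10 mature oligodendrocyte markers were detected in every library and summed to between 3543 and 12451 CPM per kb of exon, against 285 to 799.6 for the pan-neuronal list. Choroid plexus markers were far higher in sgRosa replicate 3 and sgEgfr replicate 1 (mean 6.63 and 6.48 log2 CPM) than in the other 4 libraries (0.40 to 2.09), and results are given without both where that matters.

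Among the genes of the net, Ncan, Tnr and Vcan were higher in the sgEgfr libraries, by 2.30-, 2.00- and 2.63-fold in the edgeR fit. Hapln2 was lower, at 0.419 of the sgRosa level in that fit. Bcan and Ptprz1 were 1.33- and 1.49-fold higher in the fit, and Hapln1 and Hapln4 were near equal at 0.892- and 0.969-fold. None of the 8 fitted genes was called by edgeR, where the share called among all tested genes was 0.00%, and none of the 5 with a defined adjusted p was called by DESeq2, where that share was 0.410%. The groups did not overlap for 1 of the 8, Ncan, which was higher in sgEgfr; over all tested genes 13.4% had groups that did not overlap and 5.80% were higher in sgEgfr in that way. Since these genes were chosen on this contrast, nothing is read from those counts. Of the 8, 5 had a positive log2 fold change and the median was 0.49, beside 46.3% positive and a median of -0.04 over all tested genes; the filter that admitted them uses the same counts.

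**Figure D1:**
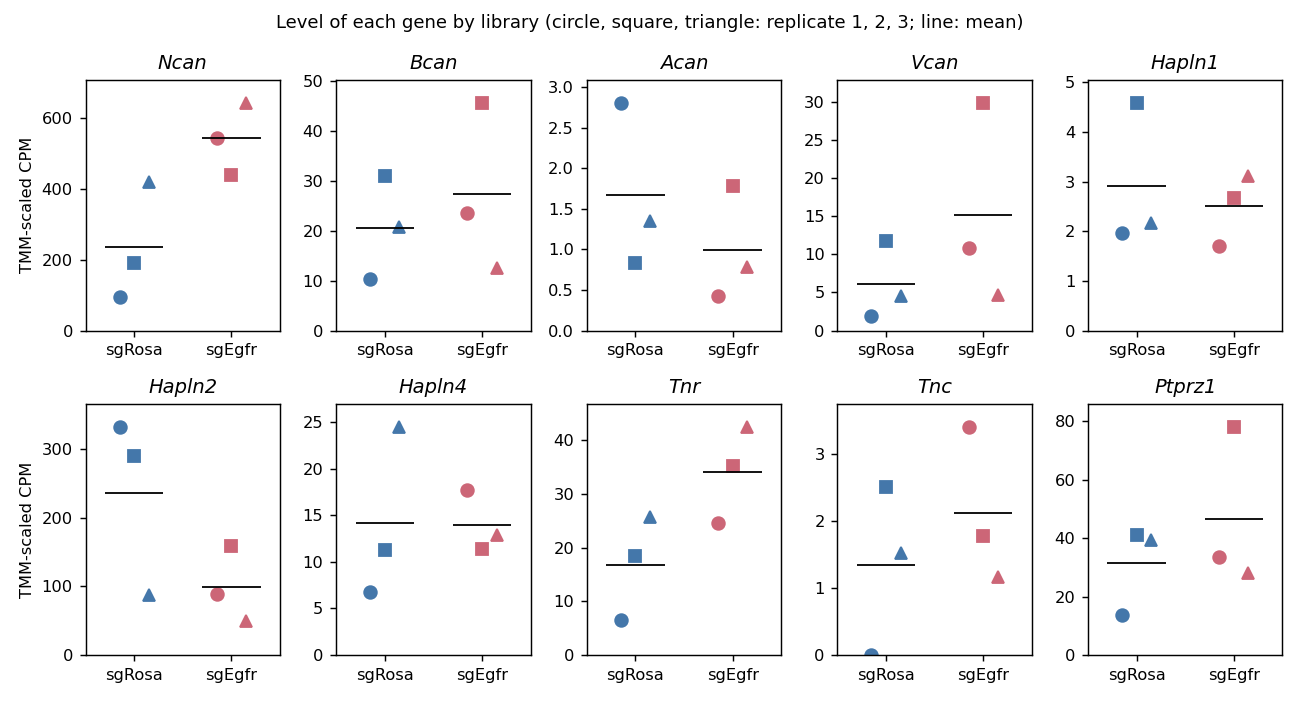
TMM-scaled CPM of the 10 genes in each library, with 3 sgRosa libraries (blue) and 3 sgEgfr libraries (red), replicate shown by shape and the group mean by a line; each panel has its own linear axis from 0. The 3 sgEgfr points of Ncan (438 to 642 CPM) lie above all 3 sgRosa points (95.9 to 419 CPM), and in each other panel the groups overlap.

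Neurocan, the lectican encoded by Ncan (chr8:70093085-70120873, minus strand, mm10), is a brain proteoglycan secreted by neurons and by astrocytes. In order of replicate number, the sgRosa libraries held 341, 455 and 4659 Ncan counts and the sgEgfr libraries 2549, 1965 and 1648. Scaled for depth these were 95.9, 190 and 419 CPM in sgRosa against 544, 438 and 642 CPM in sgEgfr. The sgEgfr libraries were all higher, but the gap between the highest sgRosa library and the lowest sgEgfr library was small beside the spread within sgRosa. The means were 235 ± 166 and 541 ± 102 CPM (SD, n = 3 each), and the fitted log2 fold change was 1.20 (SE 0.51). It was 0.86 without sgRosa replicate 1, the lowest of its group, 1.93 without sgRosa replicate 3, the highest, and 1.92 without both choroid plexus libraries.

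Brevican, encoded by Bcan (chr3:87987531-88000230, minus strand), is the other lectican restricted to the nervous system and is made largely by astrocytes and by cells of the oligodendrocyte lineage. Bcan was at 10.4, 30.9 and 20.7 CPM in sgRosa and at 23.7, 45.7 and 12.5 CPM in sgEgfr. The second replicate was the highest of each group and the groups overlapped throughout. The means of Bcan were 20.7 ± 10.3 and 27.3 ± 16.9 CPM (SD, n = 3 each), with a log2 fold change of 0.42 (SE 0.53). Leaving out sgRosa replicate 1 or 2 gave 0.12 or 0.85, and leaving out sgEgfr replicate 2 or 3 gave -0.15 or 0.78, so its sign depended on 1 library.

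Versican, encoded by Vcan (chr13:89655312-89742509, minus strand), is the most widely expressed lectican and in the brain is known from oligodendrocyte precursors and from the meninges. Vcan was at 1.97, 11.7 and 4.50 CPM in sgRosa and at 10.9, 29.9 and 4.68 CPM in sgEgfr. Here too sgEgfr replicate 2 was the highest and sgRosa replicate 1 the lowest, and sgEgfr replicates 1 and 3 lay within the sgRosa range. The log2 fold change of Vcan was 1.40, the largest among the 8 genes, with the largest SE (0.77). Leaving out sgEgfr replicate 2 gave 0.46, and leaving out sgRosa replicate 2 gave 2.22.

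Aggrecan, encoded by Acan (chr7:79053483-79115099, plus strand), is the lectican used most often as a marker of mature nets. Acan had 10, 2 and 15 counts in sgRosa and 2, 8 and 2 counts in sgEgfr, and sgRosa replicate 2 and sgEgfr replicates 1 and 3 were below the floor of 3 counts. Acan did not pass the filter on low counts, so it was left out of the fit and no difference is read from these counts. Kept in a fit with no filter, it had a log2 fold change of -0.66 (SE 0.72).

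The link proteins did not share 1 pattern. Hapln2 (chr3:88021750-88027583, minus strand) encodes the link protein of the nodes of Ranvier, which is made by oligodendrocytes. Hapln2 was at 332, 289 and 87.8 CPM in sgRosa and at 88.1, 158 and 49.9 CPM in sgEgfr. Replicates 1 and 2 of sgRosa were above every other library, while sgRosa replicate 3 lay inside the sgEgfr range. The means of Hapln2 were 236 ± 131 and 98.8 ± 55.1 CPM (SD, n = 3 each), with a log2 fold change of -1.26 (SE 0.57) that stayed between -1.77 and -0.92 as each library was left out. Mature oligodendrocyte markers moved with it: 10 of 10 had a negative log2 fold change (median -1.0), none was at 0 in any library, and their summed level was 24063 to 70501 CPM in sgRosa and 22231 to 56803 CPM in sgEgfr. In bulk RNA, fewer cells of a type and less RNA per cell cannot be told apart.

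Hapln4 (chr8:70083457-70090862, plus strand) encodes a link protein made by neurons that is found with brevican in nets. Hapln4 was at 6.75, 11.3 and 24.5 CPM in sgRosa and at 17.7, 11.4 and 12.9 CPM in sgEgfr. All 3 sgEgfr libraries fell inside the sgRosa range, whose ends were replicates 1 and 3. The log2 fold change of Hapln4 was -0.04 (SE 0.46), with 0.65 or -0.35 when sgRosa replicate 3 or 1 was left out and 0.44 without both choroid plexus libraries. Hapln1 (chr13:89539796-89611652, plus strand) encodes the link protein first known from cartilage, which net-bearing neurons also make. Hapln1 had 7, 11 and 24 counts in sgRosa and 8, 12 and 8 in sgEgfr, or 1.97, 4.59 and 2.16 CPM against 1.71, 2.68 and 3.12 CPM. The groups overlapped, and its log2 fold change of -0.17 (SE 0.53) turned to 0.28 when sgRosa replicate 2 was left out and to 0.05 when sgEgfr replicate 1 was.

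Tenascin-R, encoded by Tnr (chr1:159523769-159931729, plus strand), is the trimeric glycoprotein that crosslinks lecticans in nets and is made by oligodendrocyte lineage cells and some neurons. Tnr was at 6.47, 18.4 and 25.7 CPM in sgRosa and at 24.5, 35.3 and 42.5 CPM in sgEgfr. Only sgRosa replicate 3 and sgEgfr replicate 1, the libraries with choroid plexus RNA, crossed. The means of Tnr were 16.8 ± 9.69 and 34.1 ± 9.03 CPM (SD, n = 3 each), with a log2 fold change of 1.00 (SE 0.47), which was 0.64 without sgRosa replicate 1 and 1.67 without both choroid plexus libraries. Exons of Tnr share 443 bases with the antisense gene Gm38039, which was not among the counted genes. As no source says whether counting used strand, reads of Gm38039 from there may be counted as Tnr. Tenascin-C, encoded by Tnc (chr4:63959785-64047015, minus strand), is the form of development and of reactive astrocytes. Tnc had 0, 6 and 17 counts in sgRosa and 16, 8 and 3 counts in sgEgfr. The count of 0 in sgRosa replicate 1 allows up to 0.844 CPM. Tnc did not pass the filter on low counts, so it was left out of the fit and no difference is read from these counts. Tnc shares 176 exon bases with 8030451A03Rik on the opposite strand, which was counted, and reads from there cannot be assigned to 1 of them. With no filter the log2 fold change of Tnc was 0.79 (SE 0.78).

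Ptprz1 (chr6:22875502-23052916, plus strand) encodes a receptor tyrosine phosphatase whose secreted splice form, phosphacan, is itself a chondroitin sulfate proteoglycan of nets and binds tenascins, contactin and pleiotrophin. Ptprz1 was at 13.8, 40.9 and 39.2 CPM in sgRosa and at 33.5, 78.1 and 28.1 CPM in sgEgfr. The lowest library was sgRosa replicate 1 and the highest sgEgfr replicate 2, with the other 4 close together. The log2 fold change of Ptprz1 was 0.57 (SE 0.51), and it rested on those libraries: 0.01 without sgEgfr replicate 2 and 0.24 without sgRosa replicate 1, against 0.87 without sgEgfr replicate 3 and 0.98 without both choroid plexus libraries.

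**Figure D2:**
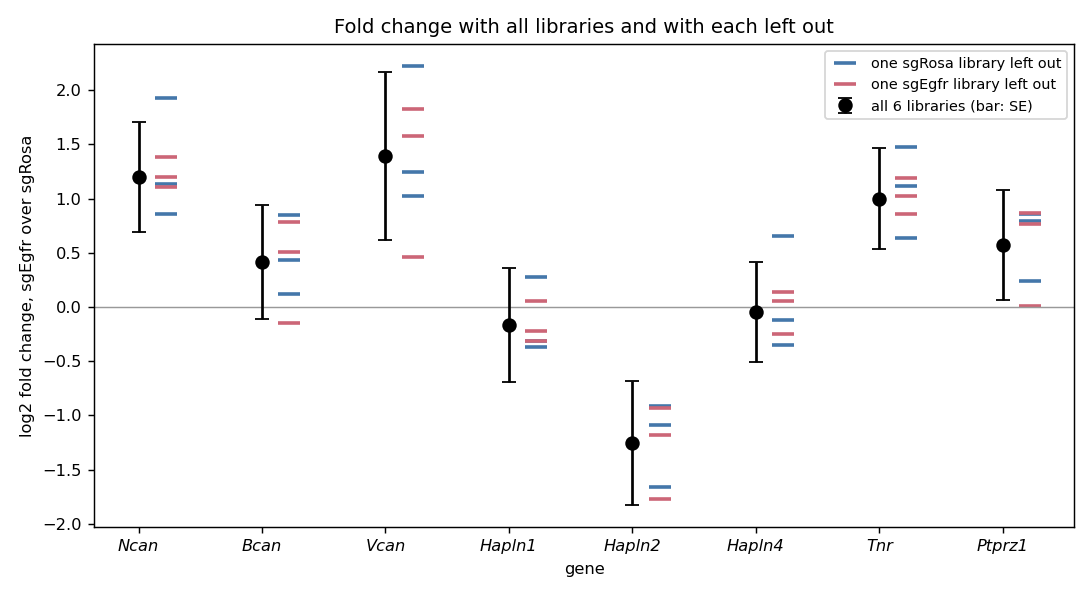
Log2 fold change (sgEgfr over sgRosa, edgeR) of the 8 fitted genes from all 6 libraries (black, bar 1 SE) and with each sgRosa (blue) or sgEgfr (red) library left out. The marks of Ncan, Vcan, Tnr and Ptprz1 stay above 0 and those of Hapln2 below 0, with the lowest mark of Ptprz1 at 0.01, while those of Bcan, Hapln1 and Hapln4 fall on both sides.

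Levels of different genes were compared as the mean CPM per kb of exon over the 6 libraries. Hapln2 (70.7) and Ncan (54.0) stood highest, with ranges that overlapped. Hapln2 was at 140, 122 and 37.0 CPM per kb in sgRosa and 37.1, 66.8 and 21.0 in sgEgfr, and Ncan at 13.3, 26.4 and 58.3 in sgRosa and 75.6, 60.9 and 89.3 in sgEgfr. Hapln2 was thus the higher in sgRosa replicates 1 and 2 and sgEgfr replicate 2, and Ncan in the other 3 libraries, so their order in the pooled mean does not hold in each group. Bcan followed at 5.90, and its range (2.56 to 11.3) did not reach that of Ncan (13.3 to 89.3). From there neighbouring ranges overlapped all the way down: Hapln4 at 3.59, Ptprz1 at 2.73, Tnr at 1.98, Vcan at 0.733, Hapln1 at 0.458, Tnc at 0.223 and Acan at 0.178 CPM per kb. Tnr was above Vcan in 6 of 6 libraries and Vcan above Hapln1 in 3 of 6. Thus the lecticans ranked Ncan, Bcan, Vcan and Acan in the pooled mean, with Acan, the net marker, at the bottom of the whole list. Tnc was above Acan in only 4 of 6 libraries, and both failed the filter, so the last place is not settled. In sgRosa replicate 1 Acan (0.377) was above Vcan (0.136).

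Each lectican gene has a link protein gene beside it on its chromosome, with 0 annotated genes between them: Ncan with Hapln4 (2222 bases apart), Bcan with Hapln2 (21519), Vcan with Hapln1 (43659) and Acan with Hapln3 (2). The ratio of Ncan to Hapln4, both per kb, was 7.75, 9.19 and 9.34 in sgRosa and 16.7, 21.0 and 27.2 in sgEgfr. The sgRosa ratios were close to one another although the Ncan level itself differed more than 4-fold among them, and the groups did not overlap. Bcan to Hapln2 was 0.0183, 0.0623 and 0.138 in sgRosa and 0.157, 0.168 and 0.146 in sgEgfr. Those groups did not overlap either, with near equal sgEgfr values and sgRosa replicate 3 close to them. Vcan to Hapln1 was 0.408, 1.04 and 0.850 in sgRosa and 2.60, 4.56 and 0.612 in sgEgfr, where sgEgfr replicate 3 lay among the sgRosa libraries. Both members of Acan and Hapln3 were at or near the floor (Hapln3 had 4, 0 and 8 counts in sgRosa and 4, 11 and 5 in sgEgfr) and no ratio was taken. The ratios are made of the values that chose the genes and were not tested. In CPM, 13.4% of all tested genes had groups that did not overlap, and that share was not taken for ratios.

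**Figure D3:**
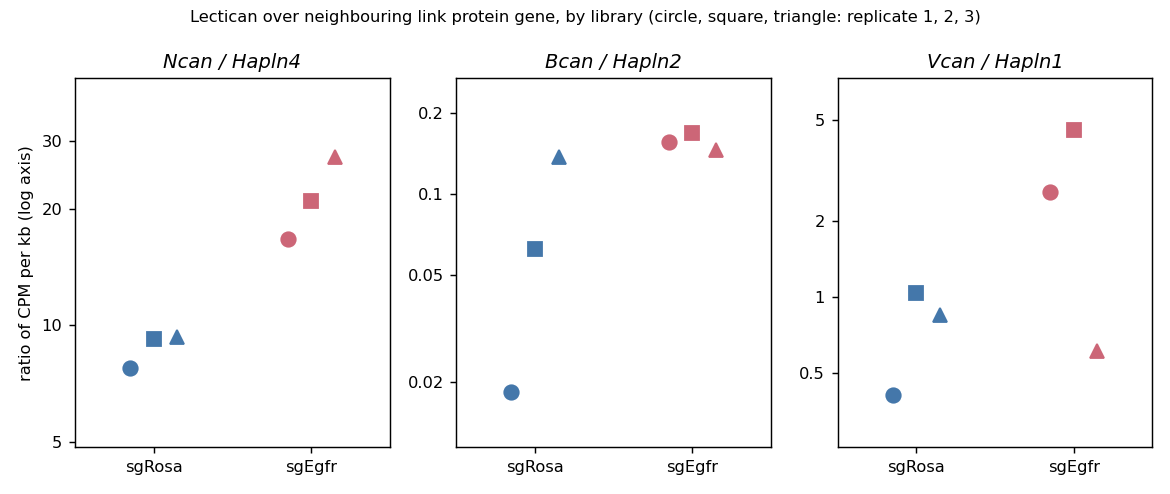
Ratio of CPM per kb of a lectican gene to that of its chromosomal neighbour among the link protein genes, by library, on log axes (circle, square and triangle for replicates 1, 2 and 3). Ncan to Hapln4 runs from 7.75 to 9.34 in sgRosa and from 16.7 to 27.2 in sgEgfr, and Vcan to Hapln1 overlaps between the groups.

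Neighbours on the chromosome did not have the most similar profiles. Over the 6 libraries, the root mean square distance between centred log2 CPM profiles was smallest for Bcan and Ptprz1 (0.280) and next for Ncan and Tnr (0.341) among the 28 pairs of fitted genes. The 2 genes of the first pair are on chromosomes 3 and 6 and those of the second on 8 and 1. Ncan and Hapln4 ranked 6 (0.683), Vcan and Hapln1 ranked 20 (1.12), Bcan and Hapln2 ranked 21 (1.14), and Ncan and Hapln2 were farthest apart (1.89). The distances share libraries and depth and are a description. The ratio of Bcan to Ptprz1 per kb stayed between 1.56 and 2.65 in every library, while the ratio of Ncan to Bcan ran from 3.47 to 29.1.

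Markers of cell types were set beside the genes because the isolated cells were mixed. For each gene the mean log2 CPM of a marker list was subtracted in each library, and the SD of that difference over the 6 libraries was set beside the SD of the gene itself. Hapln2 followed the mature oligodendrocyte markers, with an SD of 1.07 alone and 0.262 after subtraction. Ncan (1.05 to 0.588), Tnr (0.934 to 0.636) and Hapln4 (0.613 to 0.411) were tightest about the pan-neuronal list. Bcan was tightest about the astrocyte list (0.783 to 0.383), then the oligodendrocyte precursor (OPC) list (0.479) and the fibroblast and meningeal list (0.520). Ptprz1 was tightest about the OPC list (0.804 to 0.576), with the fibroblast and meningeal (0.640) and astrocyte (0.650) lists close behind. Vcan was tightest about fibroblast and meningeal markers (1.29 to 0.660), with OPC (0.866), microglial (0.878) and astrocyte (0.907) markers next and close together. Hapln1 was tightest about the parvalbumin interneuron list (0.450 to 0.374), at counts of 24 or fewer. The mean of that list varied least of the 9 over the libraries (SD 0.505, against up to 2.78 for choroid plexus), which favours it for a gene of small spread. The parvalbumin list was Pvalb, Kcnc1, Kcnc2, Syt2, Erbb4, Gad1, Gad2 and Slc32a1. Its highest in level, Gad1 and Gad2, are markers of inhibitory neurons at large. Its log2 fold changes were positive for 2 of 8 and negative for 6. The smallest of 9 lists is named first for each gene, which favours small values.

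**Figure D4:**
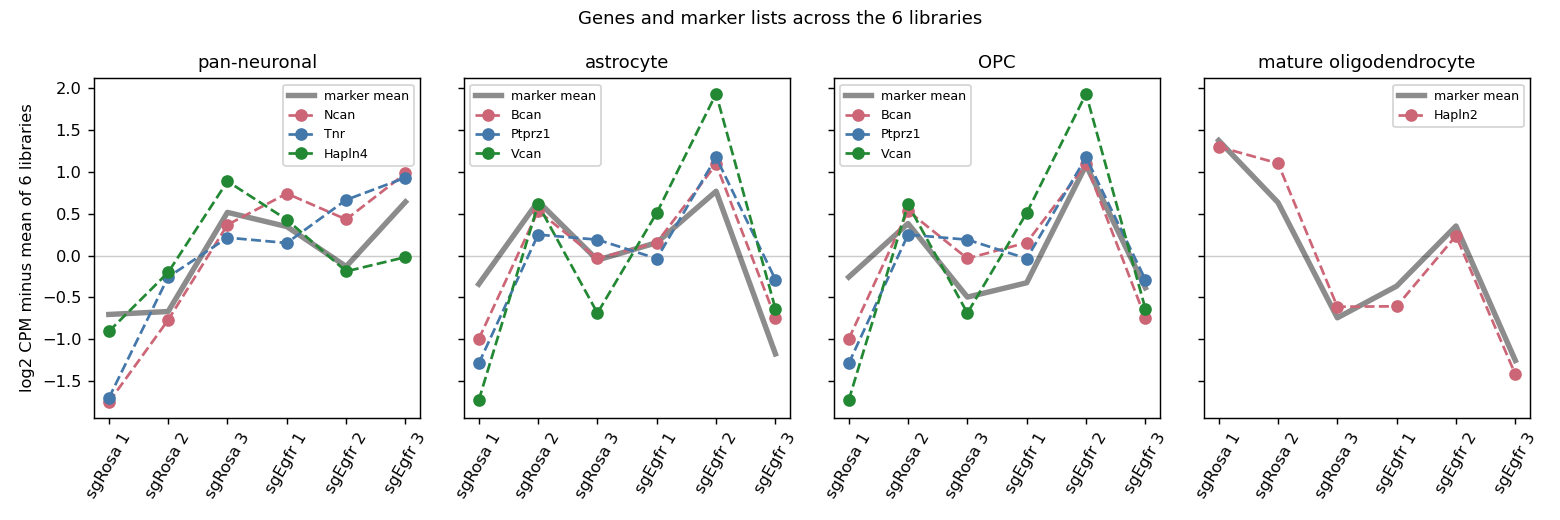
Log2 CPM in the 6 libraries, centred on the mean over libraries, of 7 genes (dashed) and of the mean of a marker list (thick grey line), 1 panel a list. Hapln2 lies near the oligodendrocyte line in all libraries, while Ncan and Tnr fall below the pan-neuronal line in sgRosa replicate 1 and above it in sgEgfr replicates 2 and 3.

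**Figure D5:**
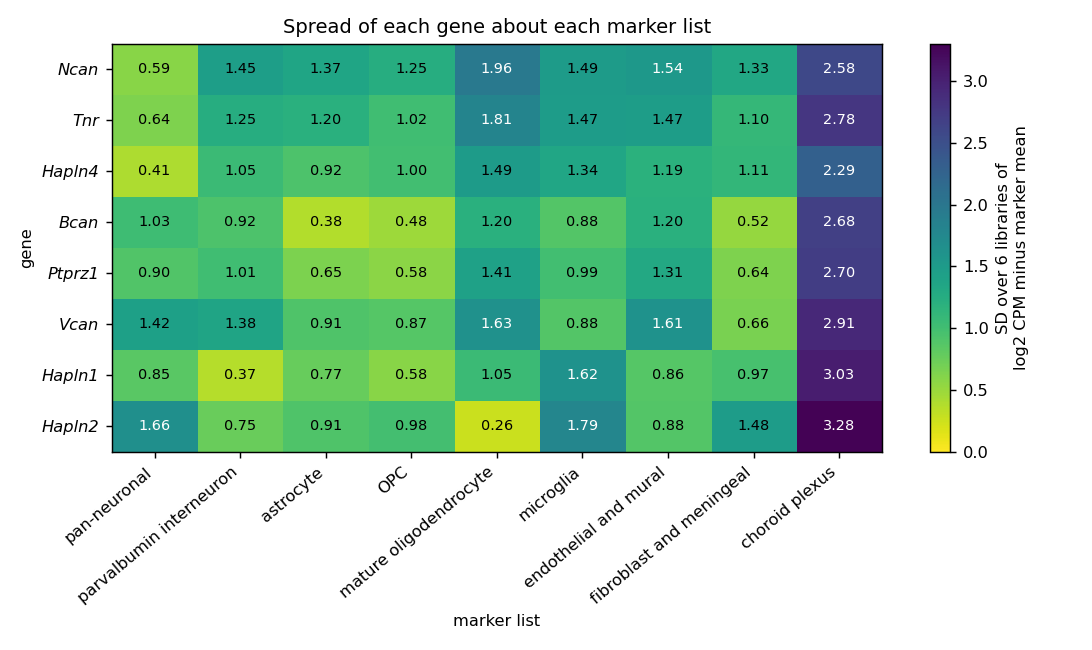
SD over the 6 libraries of log2 CPM of a gene (rows) minus the mean of a marker list (columns), yellow for small. The smallest value is that of Hapln2 about mature oligodendrocyte markers (0.262), and the choroid plexus column is the widest for every gene.

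The marker lists themselves were also compared between the groups, as a description. All 12 astrocyte markers were detected in every library and 4 of 12 had a positive log2 fold change (median -0.11); their summed level was 931 to 1632 CPM in sgRosa and 569 to 1745 CPM in sgEgfr. All 12 OPC markers had counts above 0 in every library, but C1ql1 and Matn4 fell below the floor of 3 counts in some. C1ql1 had 2 counts in sgRosa replicate 2 and in sgEgfr replicate 3, and Matn4 had 2 in sgEgfr replicate 3. Of the 11 OPC markers tested 6 were positive (median 0.36), and the sums of the list were 153 to 355 CPM and 178 to 490 CPM. The precursor marker Pdgfra, the receptor for platelet-derived growth factor, was at 7.03, 69.8 and 14.6 CPM in sgRosa and 53.5, 123 and 41.3 CPM in sgEgfr, with sgRosa replicate 1 lowest and sgEgfr replicate 2 highest, the same libraries as for Vcan and Ptprz1. Pdgfra had the highest log2 fold change of its list (1.27, SE 0.80); of the other 3 OPC markers highest in level, Olig1 (-0.69) and Sox10 (-0.66), which the whole oligodendrocyte lineage expresses, were negative and Cspg4 (0.36) was positive. All 12 pan-neuronal markers were positive (median 0.47), with sums of 1587 to 4656 and 2627 to 4545 CPM. Microglial markers were positive in 8 of 8 (median 1.36), at sums of 62.2 to 156 and 32.0 to 458 CPM. No marker of the astrocyte, OPC, oligodendrocyte, neuronal or microglial lists was at 0 in a library, and the part that these cells have in the differences of the net genes was not tested.

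Relative to the marker lists, the differences between groups were as follows. They are differences of mean log2 CPM and are not directly comparable with the fitted log2 fold changes. The share of all genes whose groups did not overlap was 13.4% in CPM and was not taken on these scales. Ncan minus the pan-neuronal mean was 0.14, 1.09 and 1.04 in sgRosa and 1.58, 1.75 and 1.53 in sgEgfr (log2), a difference of 0.87. Those groups did not overlap, and sgRosa replicate 1 was the lowest. Against the astrocyte mean the difference for Ncan was 1.61 and against the OPC mean 1.19, and on both scales the groups overlapped, with sgRosa replicate 3 above sgEgfr replicate 2. Vcan minus the astrocyte mean was -3.77, -2.42 and -3.02 in sgRosa and -2.03, -1.22 and -1.84 in sgEgfr, which did not overlap (difference 1.37). About the fibroblast and meningeal mean, the tightest list of Vcan, the groups did not overlap either (0.97), whereas about the OPC mean they did (0.96). Tnr differed by 1.34 against the astrocyte, 0.92 against the OPC and 0.59 against the pan-neuronal list. Bcan differed by 0.50 against astrocytes and by 0.09 against OPCs, and Ptprz1 by 0.74 and 0.32. Against the pan-neuronal list the sign of both turned, to -0.24 for Bcan and -0.00446 for Ptprz1. Hapln2 minus the oligodendrocyte mean was -2.68, -2.14 and -2.48 in sgRosa and -2.85, -2.73 and -2.78 in sgEgfr. The difference of Hapln2 was -0.35 on that scale, beside a fitted log2 fold change of -1.26. The groups lay apart by a gap smaller than the spread within sgRosa. Against the astrocyte mean Hapln2 differed by -1.03, with groups that overlapped, and against the OPC mean by -1.44, with groups that did not. Against the oligodendrocyte mean, chosen after seeing the data, the other fitted genes were all higher in sgEgfr, by 0.71 (Hapln1) to 2.28 (Ncan).

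Outside the net genes, the tested genes with the closest profiles were named by distance alone, 3 for each gene out of 13158. Hapln2 lay nearest to Nipal4 (0.106), Mag (0.114), the myelin-associated glycoprotein gene, and Adssl1 (0.143). Ncan lay nearest to Tspyl5 (0.109), Micu3 (0.126), a regulator of the mitochondrial calcium uniporter, and Gm13420 (0.160), and Tnr to Fhit (0.153), Tmem200c (0.178) and Grin3a (0.183), an NMDA receptor subunit gene. Bcan lay nearest to Fam46a (0.0864), Gm6402 (0.190) and Irf8 (0.196), and Ptprz1 to Nr4a3 (0.189), Pik3ap1 (0.190) and Gm31288 (0.199). The nearest genes of Vcan were Cd44 (0.372), Fzd9 (0.373) and Rab20 (0.374), of Hapln1 Boc (0.102), Rab27a (0.122) and Pde12 (0.131), and of Hapln4 Ift57 (0.0960), Galnt14 (0.11) and Zfp423 (0.112). Vcan thus had no gene as close as the others had, and its closest, Cd44, encodes a cell surface receptor for hyaluronan. The median distance to all genes was between 0.576 (Hapln1) and 1.24 (Vcan), and with 6 libraries and 13158 candidates small distances are found for any gene.

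The remaining genes of matrix assembly came from 6 lists drawn up by role, with 74 genes, of which 62 were tested. By the edgeR quasi-likelihood test (adjusted p under 0.05 over all genes) 0 were higher and 0 lower, and DESeq2 and limma-voom called 0 as well. Taken without adjustment, p was under 0.05 for 4 genes (6.45%, beside 6.16% of all tested genes), of which 3 were higher and 1 was lower. The log2 fold changes were positive for 34 and negative for 28, with a median of 0.05, and 8.06% had groups that did not overlap, beside 13.4% of all tested genes.

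Hyaluronan, the backbone of the net, is made by synthases and cut by hyaluronidases. In that list 3 of 6 tested genes were positive (median 0.01). Tmem2, a cell surface hyaluronidase, was at 24.7, 32.2 and 21.7 CPM in sgRosa and 33.7, 48.2 and 36.6 CPM in sgEgfr, which did not overlap, with a log2 fold change of 0.60 (SE 0.25) that did not pass by edgeR (adjusted p = 0.781). The hyaluronan receptor gene Cd44 was at 3.09, 15 and 8.73 CPM against 11.9, 30.8 and 10.1 CPM, overlapping and with sgEgfr replicate 2 highest, as for Vcan. Hyal2 and the synthase gene Has1 had log2 fold changes of -0.25 (SE 0.35) and 0.26 (SE 1.18).

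Chains of chondroitin sulfate are built on the lecticans and then sulfated. Of the chain synthesis genes 5 of 11 were positive (median -0.01), and the 4 highest of them, Fam20b, Chpf, Csgalnact2 and B3gat3, lay between -0.35 and 0.18. Of the sulfotransferases and epimerases 3 of 7 were positive (median -0.10). Chst12, which sulfates position 4 of the chain, was at 19.1, 20.5 and 18.6 CPM in sgRosa and 11.3, 8.93 and 13.6 CPM in sgEgfr. The groups of Chst12 were well apart, yet its log2 fold change of -0.79 (SE 0.26) did not pass by edgeR (adjusted p = 0.781). The dermatan sulfate genes Ust, Dse and Dsel had -0.38, 0.25 and 0.33.

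Proteases that cleave lecticans and their inhibitors had positive log2 fold changes in 10 of 11 tested genes (median 0.20, highest 1.33), none of which passed. The lectican-cleaving proteases Adamts1 and Adamts4 had log2 fold changes of 0.21 (SE 0.37) and 0.05 (SE 0.51), and the inhibitors Timp3 and Timp2 of 0.11 and 0.07. Adamts9, named after its values were seen, was at 3.37, 2.51 and 2.7 CPM in sgRosa and 4.27, 8.26 and 9.35 CPM in sgEgfr, with a log2 fold change of 1.33 (SE 0.42) that did not pass by edgeR (adjusted p = 0.781). Among receptors and partners of the proteoglycans 8 of 14 were positive (median 0.21). Of these, the adhesion genes Ncam1 (0.43) and Cntn1 (0.54), the latter a ligand of Ptprz1, and the chondroitin sulfate receptor gene Ptprs (0.45) were positive, and the Ptprz1 ligand gene Ptn was at -0.33. Rtn4rl1, a Nogo receptor family gene also named after its values were seen, had 1.07 (SE 0.39) and did not pass by edgeR (adjusted p = 0.781). The other brain matrix genes had 5 of 13 positive (median -0.06), led in level by Sparcl1 (-0.23), Sparc (0.31), Dcn (-0.66) and Agrn (0.05).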

How the data were processed

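The authors deposited raw read counts per gene, with no normalization, in a table for each library and a table for the series. The 6 columns of the series table that name these samples held the same counts; 3 others match no sample and were left unused. Per the submitters' processing notes, reads were handled with MultiQC 1.11, FastQC 0.11.9, fastp 0.23.2, featureCounts 2.0.1, STAR 2.7.5c and edgeR 3.42.4 on mm10. How these were ordered and set, which annotation was used and whether counting used strand is not given in the sources used here. No label names molecular identifiers, so PCR copies may be counted as reads.

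Titles gave the groups. Genes passing filterByExpr (minimum count 10, minimum total 15; 13159 genes) were scaled by TMM and fitted by quasi-likelihood (robust) in edgeR 4.0.16 under R 4.3.3. P-values were adjusted over all of them by the Benjamini-Hochberg method, with a threshold of 0.05, and the code was tested on simulated data. A standard error is the log2 fold change over the square root of F, and log2 CPM uses a prior count of 2. Alternatives were other scalings and filters, DESeq2 1.42.0, limma-voom (limma 3.58.1), a replicate block and each library left out. Every pair of libraries differed beyond counting noise (chi-square per degree of freedom 10.0 or more).

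The 10 genes, the marker lists and the matrix lists were chosen with earlier results of these data known. From each list up to 4 tested genes with the highest mean CPM could be named, and for each fitted gene the 3 nearest profiles. Positions and exon lengths are from GENCODE vM21 (GRCm38, the assembly of mm10), in which 26763 of 35976 symbols were found; upstream sequences are from RefSeq.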

Additional observations from a re-analysis of the deposited data

How the results depend on the processing

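The count of 0 genes past the threshold was 0 under every scaling and filter, with limma-voom, without each library in turn (0 to 0) and without both choroid plexus libraries; DESeq2 gave 33 (31 higher, 2 lower). The count among matrix genes was 0 in all of these. With the replicate block it was 0 genes too: the replicate numbers were not taken to pair libraries, because deviations of equally numbered libraries correlated across genes at -0.03, 0.48 and 0.28, and sgRosa replicate 1 and sgEgfr replicate 1 each correlated best with another number. Of 119 refitted values of the 8 genes, 110 kept their sign; Ncan, Vcan, Hapln2, Tnr and Ptprz1 kept it in all refits, but relative to pan-neuronal markers Ptprz1 (-0.00446) and Bcan (-0.24) did not. Hapln4, near 0, was 0.13 with the replicate block. No scaling moved the median of all genes beyond -0.07. Subtracting the mature oligodendrocyte mean was chosen after seeing the data. Depth limits Acan, Tnc and Hapln1, whose largest counts were 15, 17 and 24.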
